A study of Mus musculus with 9 samples.

Results

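The genes described here are 8 genes of fatty acid oxidation and its control: Acsl5, Cpt1a, Cpt2, Acadm, Acadl, Hadha, Ehhadh and Pdk4. They were chosen by name, as genes known for this pathway, although earlier results of these data were known at the time. Their mouse Ensembl identifiers were found in the count table, so that 8 of 29288 genes in the table were members. All 8 passed the filter on low counts, which left 18933 genes to test, and the smallest raw count of any member in any library was 428. The name of the group also speaks of ketogenesis, but none of the 8 genes encodes an enzyme of ketone body synthesis.

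Bulk RNA-seq measured gene expression in intestinal epithelial cells (IECs) that had been isolated from proximal small intestinal crypts; all mice were female, WT and of the C57BL/6J strain, and animals of the study were 7 to 10 weeks old. Mice were injected intraperitoneally with PBS and sampled at 18 h (control, n = 3), or with 2 μg of αGalCer, a lipid antigen that activates natural killer T (NKT) cells when it is presented by CD1d, and sampled at 18 h (18h-αGal, n = 3) or 72 h (72h-αGal, n = 3). The comparisons ask how the IEC transcriptome responds to NKT cell activation in vivo. All controls were taken at 18 h, so at 72 h the effects of αGalCer and of sampling time cannot be told apart. Live cells were sorted as EpCAM+, Ter119-, CD31- and CD45-, and 3 mice were injected per group, so that there were as many libraries as mice, although the labels tied no library to a mouse and gave no batch. P-values therefore measure the spread between these libraries.

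Fatty acid oxidation begins when a long-chain fatty acid is joined to coenzyme A, and the acyl group is then carried into the mitochondrion by the carnitine shuttle and shortened in repeated cycles of beta-oxidation to acetyl-CoA. Peroxisomes run a related pathway on very-long-chain and dicarboxylic acids. In the intestine these enzymes serve absorptive enterocytes, which handle dietary fat, and crypt stem cells, which also use fatty acids and make ketone bodies, and many of the genes are targets of the PPAR family of nuclear receptors.

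Cpt1a was the 1 member that passed the test, and it was lower at 18 h, whereas at 72 h its libraries lay at or just above the top of the controls. The other members showed smaller, more variable or later differences that did not pass. Pdk4 was low in 2 of the 3 18h-αGal libraries, and Acsl5 was lower in the 72h-αGal libraries than in every 18h-αGal library. Between the αGalCer groups 32.8% of all genes tested likewise did not overlap. Among the other genes of the pathway, the thiolase gene Acaa2 was lower at 18 h and the ketone body-using enzyme gene Oxct1 was higher, and both differences passed the test.

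Total counts ranged from 8887861 in control replicate 3 to 32722293 in control replicate 1, and the members held between 0.108% and 0.15% of the counts of a library. Values below are normalised counts, that is, the raw count divided by a size factor for each library, and they can be compared between libraries for a gene but not between genes. A gene was called changed when its adjusted p from edgeR, over all genes tested, was under 0.05. The epithelial markers Epcam, Cdh1, Krt8, Krt18 and Krt19 summed to between 70614 and 89171 normalised counts in every library. The 10 leukocyte markers summed to 371 to 577 in control, 422 to 721 in 18h-αGal and 704 to 849 in 72h-αGal, above every control at 72 h. Most of this was Cd68, at 262 to 466, 304 to 572 and 531 to 751, and at 72 h it lay above all controls without being called (log2 fold change 0.75 ± 0.26, unadjusted p = 0.0114, edgeR adjusted p = 0.810). Ms4a1 was at 0 in every control and at 7.36 to 23.2 in 72h-αGal, and Cd3e, Cd3g, Nkg7 and Jchain each had between 0 and 24.3 in all libraries. The part of leukocyte RNA in the differences at 72 h was not tested. The 6 stroma and endothelium markers in the table (Col1a1, Col1a2, Col3a1, Pdgfra, Pecam1 and Cdh5) had low sums. These were 75.8 to 97.5 in control, 24.3 to 34.5 in 18h-αGal and 24.2 to 48.7 in 72h-αGal. Every control thus lay above every αGalCer library, and the part of such RNA in the differences was not tested. The 3 libraries of a group differed in their mature enterocyte markers: the sum over 10 markers (Alpi, Apoa1, Apoa4, Sis, Lct, Treh, Anpep, Slc5a1, Mttp and Krt20) was 213566, 141055 and 377497 in control replicates 1 to 3, 235735, 200007 and 317685 in 18h-αGal, and 145456, 183495 and 90447 in 72h-αGal. Most of each enterocyte sum was Sis and Anpep.

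In levels per transcript length, expressed in TPM, where the length-scaled values of a library share a common total, over the canonical transcript, Hadha had the highest control mean among the members, at 205 ± 8.9 TPM (SD, n = 3). Acsl5 followed at 176 ± 63.1 TPM and Cpt2 at 165 ± 22.4 TPM, and its control libraries overlapped those of both Hadha and Cpt2, whereas the lowest library of Hadha (197 TPM) lay above the highest of Cpt2 (191 TPM). Cpt1a had a lower mean, at 117 ± 12.2 TPM, and its highest control library, at 131 TPM, lay below the lowest of Cpt2, at 150.3 TPM, but above the lowest of Acsl5, at 118 TPM. Ehhadh (91.4 ± 20.6 TPM) overlapped both Cpt1a and Acadm (80.9 ± 7.5 TPM). Acadl (68.4 ± 8.5 TPM) lay below Acadm by less than 0.1 TPM in the nearest libraries, and overlapped Pdk4 (47.6 ± 11.7 TPM), which was the lowest. The order depended on the length used: over the union of all annotated exons the highest level was that of Acsl5, at 186 TPM, Hadha stood at 126 TPM, below Cpt2 and Ehhadh, and the lowest was Acadm, at 38.3 TPM.

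**Figure D1:**
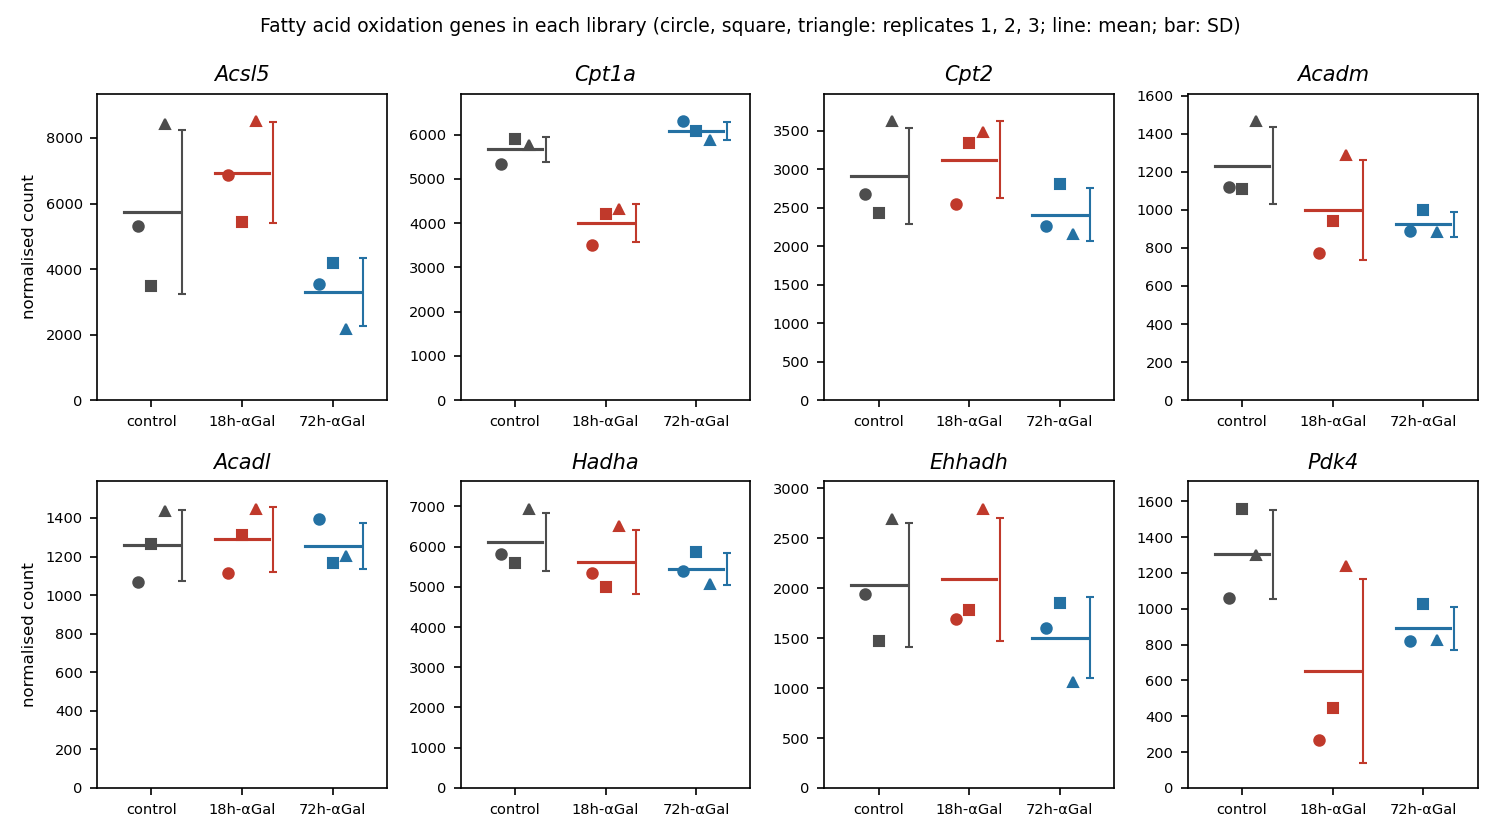
Normalised counts (linear axis from 0) of the 8 members in each library, with 3 libraries per group, circles, squares and triangles for replicates 1, 2 and 3, horizontal lines for group means and bars for the SD. Cpt1a in 18h-αGal lay between 3515 and 4313, below all control and 72h-αGal libraries, and Pdk4 in 18h-αGal was split between 2 low libraries and 1 library at 1238.

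Of the 8 members, 1 was called in 18h-αGal against control, where 5.96% of all genes tested were called. That member, Cpt1a, was lower, against 2.69% of all genes called lower and 3.27% called higher. The libraries of the 2 groups did not overlap for 1 of 8 members, against 23.8% of all genes tested. The members were split evenly by sign, with 4 below and 4 above zero and a median log2 fold change of -0.036, beside -0.030 for all genes tested. In 72h-αGal against control, 0 of 8 members were called by edgeR, against 0.0264% of all genes, 1 had an unadjusted p under 0.05, and DESeq2 also called 0. Here 6 members lay below zero with a median of -0.32, beside 0.0022 for all genes, and 2 of 8 did not overlap, against 12.7% of all genes. In 72h-αGal against 18h-αGal, 1 of 8 members was called, and it was higher, against 10.2% of all genes called, 4.18% higher and 6.04% lower. In that comparison 2 of 8 members did not overlap, against 32.8% of all genes, and the median was -0.069, beside 0.046.

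The first step is represented by Acsl5 (chromosome 19, 55240267 to 55286153, plus strand, GRCm39), a long-chain acyl-CoA synthetase that is abundant in the small intestine. Its normalised counts were 5306, 3487 and 8439.7 in control, 6871, 5428 and 8506 in 18h-αGal, and 3532, 4194 and 2170.1 in 72h-αGal. The 18h-αGal libraries lay among or just above the controls, whereas the 72h-αGal libraries all lay below every 18h-αGal library and overlapped only the lowest control. The non-overlap of the αGalCer groups stands beside 32.8% of all genes with such a separation. Against control the log2 fold change was 0.28 ± 0.36 (SE) at 18 h (edgeR adjusted p = 0.734) and -0.78 ± 0.36 at 72 h (edgeR adjusted p = 0.859). Between the αGalCer groups it was -1.07 ± 0.36, with an unadjusted p of 0.0207 and an edgeR adjusted p of 0.120. It passed in 2 of 14 alternative fits, DESeq2 (adjusted p = 0.0449) and the edgeR fit with only the 2 groups compared (adjusted p = 0.0199), and the largest adjusted p over the 14 was 0.305. Acsl5 followed the enterocyte markers closely, since within each of the 3 groups the order of the libraries by Acsl5 was their order by the marker sum. All 10 of these markers had log2 fold changes below zero at 72 h, with a median of -0.77, and 0 of 10 were called by edgeR (2 had an unadjusted p under 0.05). The part of enterocyte content in the Acsl5 difference was not tested. In bulk samples, fewer cells of a type and less RNA per cell cannot be told apart.

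Cpt1a (chromosome 19, 3371853 to 3437996, plus strand) encodes the outer-membrane carnitine palmitoyltransferase that commits long-chain acyl groups to the mitochondrion and is the step inhibited by malonyl-CoA. It had 5337, 5892 and 5760.4 normalised counts in control, 3515, 4200.4 and 4313 in 18h-αGal, and 6297, 6079.6 and 5887 in 72h-αGal. The 18h-αGal libraries all lay below the other 6, and the 72h-αGal libraries lay at or just above the top of the controls. Cpt1a fell 1.41-fold at 18 h (log2 fold change -0.49 ± 0.11, edgeR adjusted p = 0.0138). At 72 h it stood at 0.12 ± 0.11 against control (edgeR adjusted p = 0.923), with a 95% interval of -0.11 to 0.35. It was 1.53-fold higher in 72h-αGal than in 18h-αGal (log2 fold change 0.61 ± 0.11, edgeR adjusted p = 0.00274). The later difference was called in 14 of 14 alternative fits and the earlier in 12 of 14. The call at 18 h was lost without control replicate 2 (edgeR adjusted p = 0.0532) and without 18h-αGal replicate 1 (0.0693), within a range of 0.00378 to 0.0693 over the 14. In 0 of 3 groups did Cpt1a order the libraries as the enterocyte marker sum did, which was also so for Acadl and Pdk4. Its Pearson correlation with the enterocyte marker Sis was -0.60 over the 9 libraries and 0.22 after group means were removed. Orders of 3 libraries are too few to show whether Cpt1a follows these markers.

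The summed markers of stem cells (Lgr5, Olfm4, Ascl2, Smoc2, Slc12a2 and Axin2) were also lowest at 18 h, with sums of 42510.1 to 82375 normalised counts in control, 11719.8 to 39656 in 18h-αGal and 54737 to 86239 in 72h-αGal. Most of each sum was Olfm4 and Slc12a2. All 6 stem cell markers lay below zero at 18 h, with a median log2 fold change of -1.23, although 0 of 6 were called by edgeR and 2 had an unadjusted p under 0.05. Enteroendocrine markers were highest at 18 h and lowest at 72 h. Their sum over 5 genes was 5824 to 6478 in control, 7924 to 11034 in 18h-αGal and 2449 to 2853 in 72h-αGal. Of these 5 genes, 3 were called higher at 18 h, against 3.27% of all genes, and 5 were called lower at 72 h against control, where 0.0264% of all genes were called. The latter were all the genes called in that comparison. Marker lists were drawn up with earlier results of these data known, so these counts are a description and not independent evidence. The summed tuft cell markers were also highest at 18 h, at 2299 to 4183, 4076 to 7655 and 2347 to 3927 in the 3 groups, although 18h-αGal overlapped control. In 0 of 3 groups did Cpt1a order the libraries as the stem cell sum did. The same held for every other member, so this order does not set Cpt1a apart. The Pearson correlation of Cpt1a with Lgr5 was 0.55 over the 9 libraries and -0.55 after group means were removed. After that removal the correlation with Lgr5 was negative for every member, from -0.94 for Acadm to -0.55 for Cpt1a. Markers of cycling cells (Mki67, Top2a, Pcna, Ccnb1 and Cdk1) went the other way at 18 h, with 5 of 5 above zero. Of these, 0 were called by edgeR and 3 had an unadjusted p under 0.05. The part of cell composition in the Cpt1a difference was not tested.

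The promoters of Cpt1a and Hadha are shown as examples, of the 1 member called and of a member that was not called, and each holds 1 of the motifs searched. RefSeq promoter sequences of build GRCm38.p6 were found for 8 of 8 members, and the 250 bases before each start were searched on both strands. The motifs were AGGTCA, the half-site of nuclear receptors such as the PPARs, its repeat with a 1-base spacer, AGGTCANAGGTCA, and TTCNNNGAA, the palindrome bound by STAT factors downstream of interferon. AGGTCA was found in 2 members, Cpt1a and Acadm, and in 14.0% of all 32851 promoters. AGGTCANAGGTCA, which contains AGGTCA, was found in 0 of 8 members and 0.0335% of all promoters, and TTCNNNGAA in 2 members, Cpt2 and Hadha, and in 7.02% of all promoters. The sequences run 5′ to 3′ on the strand of the gene, with the motif in capitals, and in Cpt1a the capitals read as AGGTCA on the opposite strand, 94 to 89 bases before the start. In Hadha the capitals lie 156 to 148 bases before the start. A match of letters is a description of the window and was not tested as a binding site.
Cpt1a promoter, chr19:3323051-3323300, plus strand: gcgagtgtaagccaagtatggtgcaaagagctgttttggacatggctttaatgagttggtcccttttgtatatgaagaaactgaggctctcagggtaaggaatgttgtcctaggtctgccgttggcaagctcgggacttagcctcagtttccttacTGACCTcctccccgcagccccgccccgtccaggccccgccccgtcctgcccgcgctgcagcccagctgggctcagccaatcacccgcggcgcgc
Hadha promoter, chr5:30154981-30155230, minus strand: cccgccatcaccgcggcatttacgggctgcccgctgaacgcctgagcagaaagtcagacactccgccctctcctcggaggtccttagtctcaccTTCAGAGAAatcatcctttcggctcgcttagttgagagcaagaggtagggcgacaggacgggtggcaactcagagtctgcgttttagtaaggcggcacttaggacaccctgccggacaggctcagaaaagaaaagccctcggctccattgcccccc

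Cpt2 (chromosome 4, 107751473 to 107780812, minus strand), which releases the acyl group from carnitine on the inner side of the shuttle, differed from Cpt1a in its pattern. It had 2672, 2432 and 3618 normalised counts in control, 2545, 3339.8 and 3479.8 in 18h-αGal, and 2254, 2805 and 2162 in 72h-αGal. The 18h-αGal libraries lay within the range of control, and the 72h-αGal libraries overlapped both other groups at their lower end. The log2 fold change was 0.11 ± 0.16 at 18 h (edgeR adjusted p = 0.758), -0.25 ± 0.16 at 72 h (0.885) and -0.37 ± 0.16 between 72h-αGal and 18h-αGal (0.170; unadjusted p = 0.0362).

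Acadm (chromosome 3, 153627989 to 153650317, minus strand) encodes the dehydrogenase of medium-chain acyl-CoA. Its normalised counts were 1120.0, 1108 and 1464 in control, 774, 941 and 1289 in 18h-αGal, and 889.6, 1000.5 and 881 in 72h-αGal. All 72h-αGal libraries lay below all controls, while in 18h-αGal replicates 1 and 2 lay below the controls and replicate 3 among them. Acadm differed from control by -0.39 ± 0.18 on the log2 scale at 72 h, with an unadjusted p of 0.0414 and an edgeR adjusted p of 0.826, and by -0.29 ± 0.18 at 18 h (edgeR adjusted p = 0.385). The non-overlap at 72 h stands beside 12.7% of all genes with the same separation.

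Acadl (chromosome 1, 66868267 to 66902633, minus strand) encodes the dehydrogenase of long-chain acyl-CoA and was the most even member. It had 1070.1, 1265 and 1438 normalised counts in control, 1112, 1311 and 1446 in 18h-αGal, and 1394, 1169 and 1202 in 72h-αGal, and all 3 groups overlapped. Its log2 fold changes were 0.046 ± 0.14 at 18 h and 0.015 ± 0.14 at 72 h (edgeR adjusted p = 0.904 and 0.999), with 95% intervals of -0.26 to 0.35 and -0.29 to 0.32. Differences within these intervals could not be told from none with 3 libraries a group.

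Hadha (chromosome 5, 30323302 to 30360187, minus strand) encodes the alpha subunit of the mitochondrial trifunctional protein, which carries out the later steps of the long-chain cycle. It had 5825, 5595 and 6930.1 normalised counts in control, 5337, 4986 and 6503 in 18h-αGal, and 5397, 5865 and 5072 in 72h-αGal, with overlap between all groups. Its log2 fold change was -0.12 ± 0.12 at 18 h (95% interval -0.38 to 0.14, edgeR adjusted p = 0.653) and -0.15 ± 0.12 at 72 h (-0.41 to 0.11, edgeR adjusted p = 0.906). Hadhb, which encodes the beta subunit and whose exons share 932 bp with Hadha on the opposite strand, was likewise not called at 18 h (0.022 ± 0.12, edgeR adjusted p = 0.949). Exons of Hadha also share 2033 bp with Garem2 on the opposite strand, those of Acsl5 share 2217 bp with Zdhhc6, those of Cpt2 share 233 bp with Czib and those of Cpt1a, the member called, share 359 bp with the noncoding Gm58963, all on opposite strands, so reads of these genes may have been exchanged, since the strand setting of the counting was not given in the sources used here.

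Ehhadh (chromosome 16, 21580036 to 21606563, minus strand) encodes the bifunctional enzyme of peroxisomal oxidation and is a classical target of PPARα. Its normalised counts were 1939, 1470.3 and 2698 in control, 1694, 1778 and 2793 in 18h-αGal, and 1604, 1852 and 1063 in 72h-αGal. Replicate 3 was the highest library in control and in 18h-αGal and the lowest in 72h-αGal, as it was for the enterocyte marker sum, and the groups overlapped. The log2 fold change was 0.046 ± 0.27 at 18 h (edgeR adjusted p = 0.953), -0.42 ± 0.28 at 72 h (0.889) and -0.46 ± 0.28 between the αGalCer groups (0.352).

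Pdk4 (chromosome 6, 5483097 to 5496339, minus strand) encodes a kinase that inhibits pyruvate dehydrogenase and so spares glucose when fatty acids are burned. It had 1059, 1556 and 1300.4 normalised counts in control, 269.9, 448 and 1238 in 18h-αGal, and 819, 1027 and 825 in 72h-αGal. In 18h-αGal, replicates 1 and 2 lay below every other library, whereas replicate 3 lay within the controls. The 72h-αGal libraries all lay below the lowest control, beside 12.7% of all genes that did not overlap in that comparison. Over the 3 libraries the log2 fold change at 18 h was -1.01 ± 0.51 and was not called (unadjusted p = 0.0848, edgeR adjusted p = 0.319), with a 95% interval of -2.21 to 0.18. The single library 18h-αGal replicate 3 decided this: without it the value was -1.85 with an edgeR adjusted p of 0.000515, within a range of 0.000515 to 0.585 over the 14 alternatives. Without the same library, Pdk4 was also called higher in 72h-αGal than in 18h-αGal, at 1.32 (edgeR adjusted p = 0.00354, range 0.00354 to 0.912), whereas with all libraries that difference was 0.48 ± 0.50 (0.641). Against control at 72 h it was -0.54 ± 0.50 (edgeR adjusted p = 0.937). In 18h-αGal replicate 3 the summed stem cell markers were the lowest of all 9 libraries, at 11719.8, and the summed enterocyte markers were the highest of that group, at 317685. Why this library differed was not tested.

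**Figure D2:**
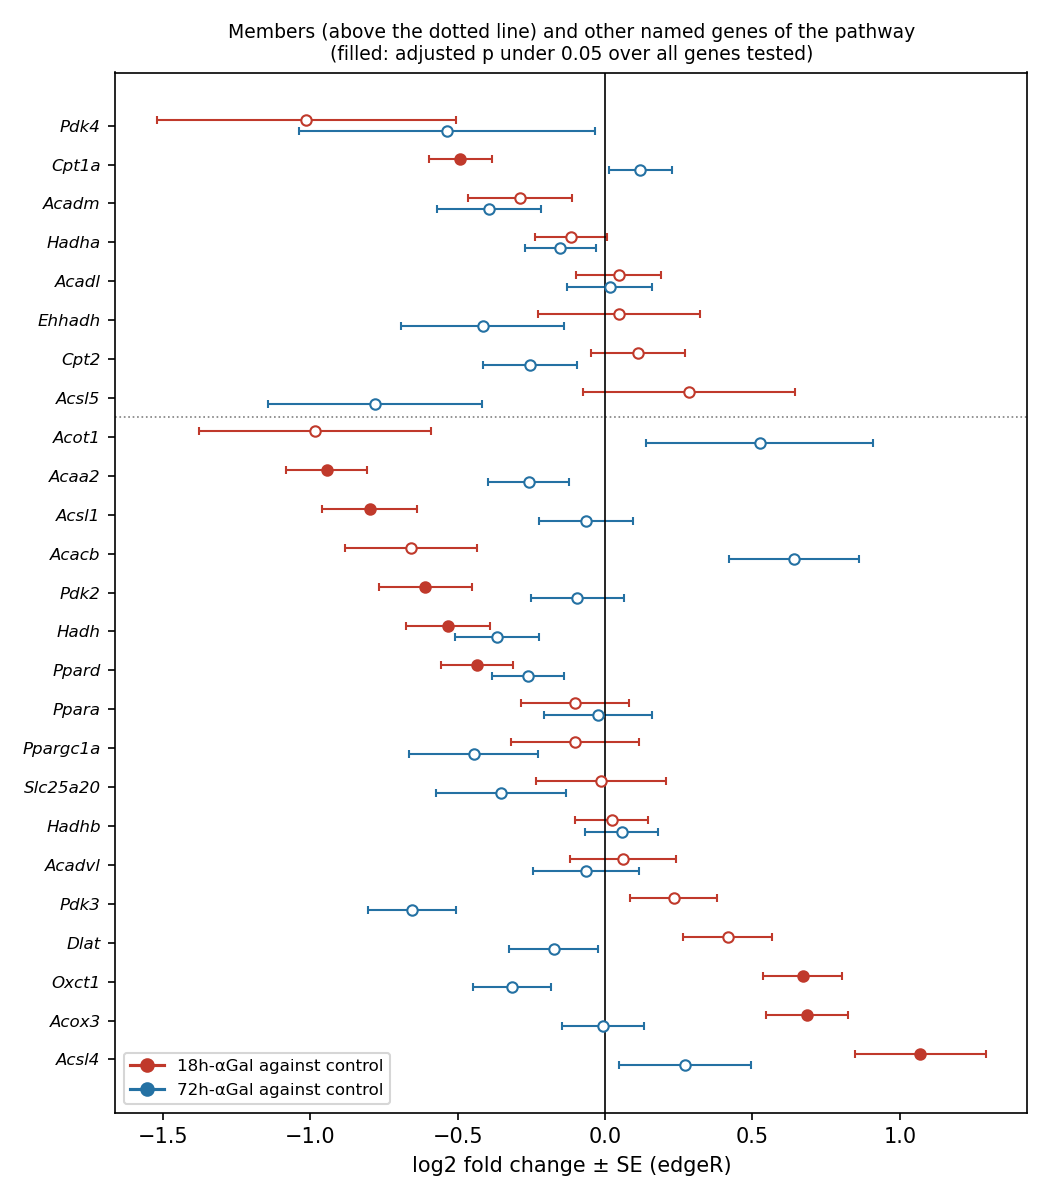
Log2 fold change with its SE from edgeR (x axis) for the 8 members, above the dotted line, and 17 other genes of the pathway, in 18h-αGal (red) and 72h-αGal (blue) against control. Filled points passed an adjusted p of 0.05, and Cpt1a is the 1 filled member, at -0.49, while of the other genes Acaa2 lies at -0.95 and Acsl4 at 1.07 at 18 h.

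For several members, levels varied with the enterocyte markers. The sum of the 8 members was 24329, 22804 and 31650.2 normalised counts in control, 22118, 22434 and 29567 in 18h-αGal, and 22186, 23990.5 and 19261 in 72h-αGal, so that replicate 3 was the highest of the first 2 groups and the lowest of the last, as it was for the enterocyte marker sum. For Acsl5 and Hadha the order of libraries matched that of the marker sum in 3 of 3 groups, for Cpt2, Acadm and Ehhadh in 2 of 3, and for Cpt1a, Acadl and Pdk4 in 0 of 3. Replicate 3 was also the library with the fewest counts in control and in 18h-αGal, and the one with the most in 72h-αGal.

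**Figure D3:**
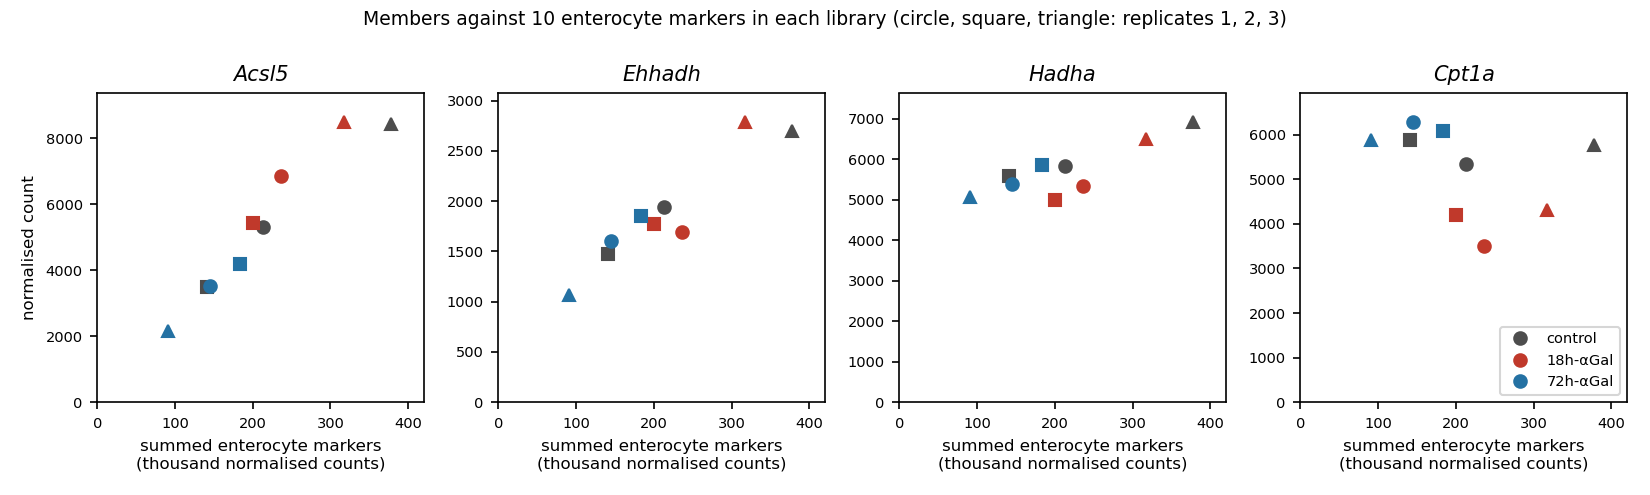
Normalised counts of Acsl5, Ehhadh, Hadha and Cpt1a (y axis, from 0) against the sum of 10 mature enterocyte markers in normalised counts (x axis, divided by 1000), with 1 point per library, grey for control, red for 18h-αGal and blue for 72h-αGal, and circles, squares and triangles for replicates 1 to 3. Acsl5 runs from 2170.1 where the marker sum is lowest to 8439.7 where it is highest, while the 3 18h-αGal points of Cpt1a lie below the other 6 at any marker sum.

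Among genes outside the lists with a mean of at least 100 normalised counts, the 5 most like the mean of the members over the 9 libraries were Tnik (Pearson r = 0.976), Klhl18 (0.9754), Nbeal1 (0.959), Atp7b (0.954) and Gsdmd (0.954), of 10794 candidates. Tnik, a kinase of the WNT pathway, had its highest value in control replicate 3 (3752 normalised counts) and its lowest in 72h-αGal replicate 3 (2307), the same libraries that were highest and lowest in the members' sum. These values share libraries and depth, and the genes were the highest of many, so they are a description.

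Oxct1, which encodes the enzyme that breaks down ketone bodies in the mitochondrion to feed acetyl-CoA into the same pool as the members' pathway, was called in the direction opposite to Cpt1a. It had 1918, 1812 and 2244 normalised counts in control, 3286, 2829.6 and 3322 in 18h-αGal, and 1836, 1577 and 1331 in 72h-αGal, with all 18h-αGal libraries above the other 6. It was higher by 0.67 ± 0.13 at 18 h (edgeR adjusted p = 0.0089) and lower by -0.99 ± 0.13 in 72h-αGal against 18h-αGal (0.000572). Its call at 18 h held in 13 of 14 alternative fits and was lost without control replicate 1 (edgeR adjusted p = 0.0532). The order of the libraries by Oxct1 matched that of the enterocyte marker sum in 2 of 3 groups, while the 10 enterocyte markers had a median log2 fold change of 0.016 at 18 h with 0 of 10 called by edgeR (1 at an unadjusted p under 0.05). The part of enterocyte content in the Oxct1 difference was not tested. Its exons share 558 bp with the antisense gene Oxct1as.

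**Figure D4:**
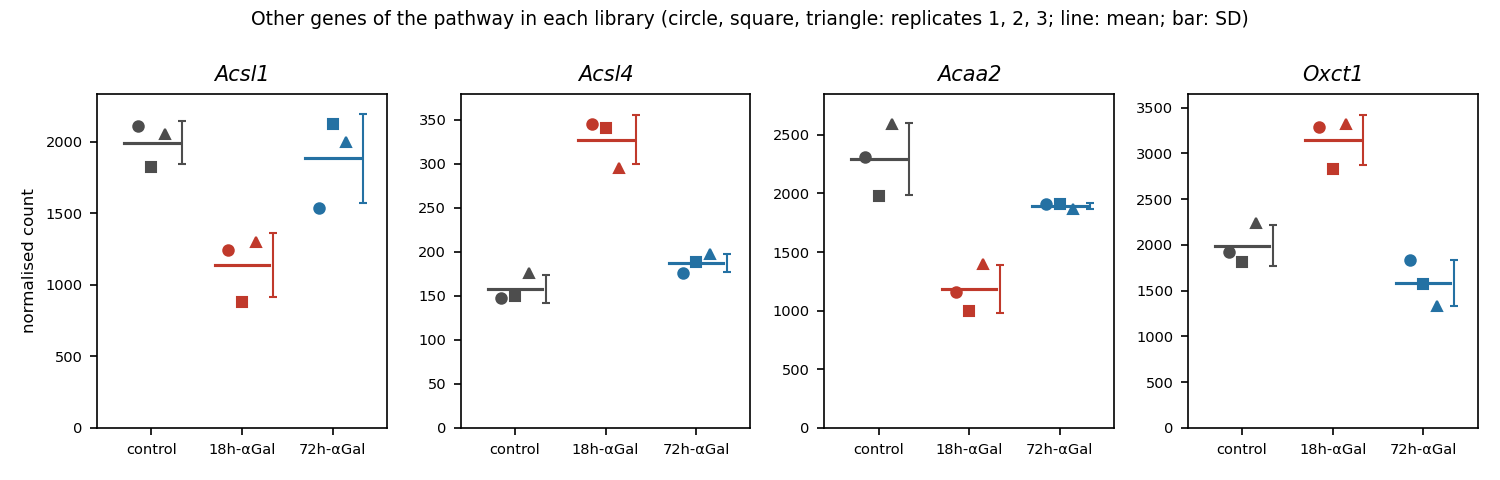
Normalised counts (linear axes from 0) of Acsl1, Acsl4, Acaa2 and Oxct1 in each library, with circles, squares and triangles for replicates 1, 2 and 3, lines for means and bars for the SD (n = 3). In 18h-αGal, Acsl1 and Acaa2 lay below all other libraries, and Acsl4 and Oxct1 lay above them.

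Of 74 other genes listed for the pathway, 71 were in the table and were tested. At 18 h, 8 of the 71 were called, 3 higher and 5 lower, against 5.96% of all genes, 49 lay below zero and the median log2 fold change was -0.19, beside -0.030 for all genes. At the step of Acsl5, Acsl1 fell by 0.80 on the log2 scale (edgeR adjusted p = 0.00935) and Acsl4, which prefers arachidonic acid, rose by 1.07 (0.0116), so 2 of the 4 other synthetases listed were called, in opposite directions. Both calls were lost without control replicate 1 (edgeR adjusted p = 0.0516 for Acsl1 and 0.0569 for Acsl4) and without 18h-αGal replicate 2 (0.0504 and 0.0552). None of the 6 other genes of the carnitine shuttle was called by edgeR, 1 of them having an unadjusted p under 0.05, and Slc25a20, the carrier between Cpt1a and Cpt2, stood at -0.014 ± 0.22 (edgeR adjusted p = 0.982). DESeq2 did call Crot of that list.

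At the steps of Acadm and Acadl, none of the 8 other dehydrogenases and electron carriers was called by edgeR or DESeq2 at 18 h, 2 of them having an unadjusted p under 0.05, and Acadvl stood at 0.059 ± 0.18 (edgeR adjusted p = 0.899). Beyond Hadha, the later mitochondrial steps fell at Acaa2, the last thiolase, from 1978 to 2594 normalised counts in control to 993 to 1402 in 18h-αGal (log2 fold change -0.95 ± 0.14, edgeR adjusted p = 0.00147), and at Hadh, by 0.53 (0.0395). In this short list 2 of 7 genes were called, beside 5.96% of all genes at 18 h. The call for Acaa2 held in 14 of 14 alternative fits and that for Hadh in 6, being lost with only the 2 groups compared, with the replicate block and without any 1 of the controls 1 and 3, 18h-αGal 1 and 2, and 72h-αGal 1 and 2 (edgeR adjusted p up to 0.171). Of the peroxisomal genes other than Ehhadh, 1 of 13 was called, beside the same 5.96% of all genes. It was Acox3, which rose by 0.68 (edgeR adjusted p = 0.0099, and 0.0612 without control replicate 1).

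Of the genes that share the role of Pdk4 or act on pyruvate dehydrogenase, 1 of 8 was called at 18 h, beside 5.96% of all genes. It was Pdk2, another kinase of the complex, which fell by 0.61 (edgeR adjusted p = 0.0342) and held in 6 of 14 alternative fits. Of 6 PPAR regulators 1 was called, beside that same share of all genes. It was Ppard, which fell by 0.43 (edgeR adjusted p = 0.0497, called in 4 of 14 alternative fits). Ppara, the receptor best known for driving these members, stood at -0.10 ± 0.18 (0.814) and its coactivator Ppargc1a at -0.10 ± 0.22 (0.850). Among 5 genes of malonyl-CoA control and AMPK, which set the inhibition of Cpt1a, and among 9 other PPAR targets, 0 were called by edgeR at 18 h, with 4 and 3 at an unadjusted p under 0.05, although DESeq2 called Vnn1 of the PPAR targets.

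At 72 h against control, 0 of the 71 genes were called by edgeR, 12 had an unadjusted p under 0.05, and DESeq2 called 1, Pdk3, at -0.65 ± 0.15 in the edgeR fit. Of the 71, 57 lay below zero and the median was -0.26, beside 0.0022 for all genes and -0.32 for the members. Between 18h-αGal and 72h-αGal, 9 of the 71 were called, 4 higher and 5 lower, against 10.2% of all genes. The 4 higher were Acsl1, Acaa2, Acacb and Acot1. Acacb encodes the acetyl-CoA carboxylase at the mitochondrial surface that makes the malonyl-CoA acting on Cpt1a, and it went from 246 to 316 normalised counts in 18h-αGal to 520.4 to 904 in 72h-αGal (log2 fold change 1.30 ± 0.22, edgeR adjusted p = 0.00245). The controls of Acacb lay between these groups, at 367 to 487 normalised counts. The 5 lower were Oxct1, Acsl4, Acox3, Pdk3 and Dlat, a subunit of pyruvate dehydrogenase. Calls for Acsl4 held in 7 of 14 alternative fits, and those for Dlat and Acot1 in 11 of 14 each, with losses without 18h-αGal replicates 1 or 3 or 72h-αGal replicate 3 for the latter 2. For Acot1, 21.0% of the 50-base words also occur elsewhere, mainly in Acot2, against at most 1.28% for any member, so its value is uncertain. Among the other named genes this share was 8.35% for Hadhb, mainly in Hadhb-ps, and 3.97% for Slc25a20, so their values carry the same limit to a lesser degree. Exons of Pdk2, which was called at 18 h, share 1989 bp with Samd14 on the opposite strand, so its reads may also have been exchanged.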

How the data were processed

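The authors isolated RNA from sorted IECs, prepared ribosomal RNA-depleted directional libraries (NEBNext Ultra II) and sequenced 100 bp reads. Per the study's methods the reads were mapped with HISAT2 to GRCm39, whereas the submitters' processing notes list GRCm38 and mm10, with featureCounts, Subread and DESeq2 1.42.0. Files name genes by Ensembl identifier and hold no coordinates, so gene positions were taken from GENCODE vM39 (GRCm39) and promoters from RefSeq (GRCm38.p6). Of 29288 identifiers, 28480 matched GENCODE, with 98.4% of all counts. The authors deposited a raw count per gene and library and a normalised signal, which equalled the raw count divided by the DESeq2 size factor of the library. Counts without molecular identifiers carry amplification error as well as counting error.

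Raw counts were tested with edgeR 4.0.16 (R 4.3.3): filterByExpr, TMM scaling, a single quasi-likelihood model (robust) with 1 mean per group over 9 libraries, and Benjamini-Hochberg adjustment over the 18933 genes tested, with a threshold of 0.05. The test was tried on simulated data. Alternatives were DESeq2 size factors, no filter, the DESeq2 1.42.0 test, only the 2 groups compared, a replicate block and leaving out each library, 14 fits in all. TPM was computed from counts and transcript length. Of the other genes, those named were the pathway genes called in any comparison, 5 further genes fixed by name (Slc25a20, Acadvl, Hadhb, Ppara and Ppargc1a) and the 5 genes most like the mean of the members' centred log2 CPM (prior count 2). Crot and Vnn1 were named after their values were seen. Some genes of the pathway are not reported here. The members and lists were chosen with earlier results of these data known.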

Additional observations from a re-analysis of the deposited data

Results flagged for a closer look

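A direct edgeR test of 72h-αGal against 18h-αGal called 1 of 8 members and 9 of 71 other genes of the pathway, beside 10.2% of all genes tested. All controls were taken at 18 h, so a change in the effect of αGalCer and an effect of sampling time cannot be told apart in this comparison. The difference, as the log2 fold change from 18h-αGal to 72h-αGal, was 0.61 for Cpt1a, the carnitine palmitoyltransferase of the outer membrane. It was positive for 4 other genes, at 1.51 for Acot1, 1.30 for Acacb, 0.74 for Acsl1 and 0.69 for Acaa2. It was negative for Oxct1 at -0.99, Pdk3 at -0.89, Acsl4 at -0.80, Acox3 at -0.69 and Dlat at -0.59. Groups of 3 libraries were too small to look for single outlying libraries by a test, and no cause of these differences was tested.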

How the results depend on the processing

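For the members, the counts called at 18 h and at 72 h against control (1 and 0) did not move under the alternative size factors, without the filter, with DESeq2, with only the 2 groups or with a replicate block, and the count between the αGalCer groups went from 1 to 2 with DESeq2 and with only the 2 groups, through Acsl5. Leaving out 1 library at a time gave 0 to 2 members at 18 h (0 without control replicate 2 or 18h-αGal replicate 1, and 2 without 18h-αGal replicate 3, which added Pdk4), 0 to 0 at 72 h and 1 to 2 between the αGalCer groups. For the other pathway genes it gave 2 to 12 at 18 h (2 without control replicate 1, 3 without 18h-αGal replicate 2), 0 to 0 at 72 h and 6 to 13 between the αGalCer groups, and DESeq2 called 1 at 72 h, Pdk3, where edgeR called 0. The fit with a replicate block called 5, 0 and 8 of them in the 3 comparisons, against 8, 0 and 9, and 1, 0 and 1 members. With only the 2 groups compared, 5 were called at 18 h. Replicate numbers recur across groups, but the deviations of same-numbered libraries correlated between -0.15 and 0.11, so the numbers were not taken as pairs. Over all genes, 18 h against control gave 1128 calls, against 1720 with DESeq2 and 593 with only the 2 groups, and 489 without control replicate 1, 681 without control replicate 2 and 432 without 18h-αGal replicate 2. For 72 h against control, 5 calls became 13 without the filter, 31 with DESeq2 and 1 with the block, 0 without control replicate 1, 72h-αGal replicate 1 or 72h-αGal replicate 3, 1 without control replicate 2, 2 without 72h-αGal replicate 2, 8 without 18h-αGal replicate 3 and 20 without control replicate 3. Between the αGalCer groups, 1936 calls became 940 without 18h-αGal replicate 2 and 1108, 1194 and 831 without 72h-αGal replicates 1, 2 and 3. The background shares rest on the fit to all libraries.

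Direction changed only in values that were not called. Acadl at 72 h was -0.000667 with the alternative size factors. Leaving out 1 library gave ranges across zero at 18 h for Acadl (-0.057 to 0.14), Ehhadh (-0.21 to 0.29), Slc25a20 (-0.25 to 0.18), Acadvl (-0.083 to 0.24), Hadhb (-0.085 to 0.11), Ppara (-0.34 to 0.030) and Ppargc1a (-0.38 to 0.13). At 72 h against control this held for Acadl (-0.085 to 0.12), and between the αGalCer groups for Acadm (-0.25 to 0.12), Acadl (-0.12 to 0.057) and Hadha (-0.11 to 0.083). The cause was not tested. With 3 libraries a group, differences of the size of the standard errors, and also larger ones, could go uncalled. Acsl5 at 72 h against control, at -0.78 ± 0.36, was not called (edgeR adjusted p = 0.859). Nor did edgeR call Crot at 18 h, at -0.64 ± 0.20 (edgeR adjusted p = 0.0683).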
